A study of Mus musculus with 45 samples.

Results

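The genes described here are 38 genes of fatty acid uptake, activation, mitochondrial transport and oxidation in the mouse left ventricle. They were taken by symbol from a list that was drawn up with earlier results of these data known, and no threshold on measured values was used. All 38 were found among the 27007 genes of the count table, and all 38 were among the 15444 genes with enough counts to be tested. RNA was sequenced from ventricles of wild-type mice (genotype WT) operated on within 24 hours of birth and then raised by their mothers. Sham mice had sham surgery, nAAC mice had their aorta constricted, and Rev-nAAC mice had a constriction that can be reversed. When the reversible constriction was released is not given in the sources used here. The 45 libraries form 9 groups of 5, since each operation was sampled at the ages of 4, 6 and 8 weeks. It is not stated that every library came from a separate animal, so a p-value measures the spread between libraries, which may be technical. In bulk tissue, fewer cells of a type and less RNA per cell cannot be told apart.

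Heart muscle takes most of its energy from long-chain fatty acids. They are freed from lipoproteins or lipid droplets, carried into the cell, joined to coenzyme A, passed over the inner mitochondrial membrane as carnitine esters, and shortened in a repeating cycle of dehydrogenation, hydration, dehydrogenation and thiolysis. The heart gains this capacity after birth, and its loss under pressure load is a textbook feature of the failing heart. Nuclear receptors of the PPAR and ERR families, with the coactivator PGC-1, are known to switch on many of these genes.

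The promoters of several members are shown because these nuclear receptors bind DNA through the half-site AGGTCA and because most members fell together in nAAC hearts. RefSeq promoter windows on GRCm38.p6, each running from 250 bases before to 50 bases after a start, were found for 32 of the 38 genes. Acaa2, Acot13, Cpt1b, Crat, Decr1 and Lpl had none and are named only. Both strands were searched. The half-site AGGTCA was found in 8 of the 32 genes (25%), namely Acacb, Acadm, Acadvl, Cd36, Cpt1a, Echs1, Plin5 and Ucp3, and in 18.1% of all 27025 genes with a window. The PPAR element AGGTCANAGGTCA, which holds the half-site as a direct repeat, was found in 0 of the 32 and in 0.0481% of all genes, and its looser form, AGGNCA repeated with any 1 base between, in 0 and 0.451%. The ERR element TCAAGGTCA, which contains the half-site, was found in 0 of the 32 and in 0.466% of all genes. The NRF1 element, GCGCA and GCGC with any 1 base between, was found in 15.6% of the members, Acad10, Etfb, Etfdh, Hsdl2 and Slc22a5, and in 5.19% of all genes. The E-box CACGTG was found in 3.13% of the members, Slc27a1 alone, and in 8.09% of all genes. A missing match says only that these letters are not in this window. In the stretches below, taken from RefSeq and trimmed to bases that lie in no annotated exon, capitals mark AGGTCA or its reverse complement. Acadm (chr3:153944644-153944893, minus strand) and Cd36 (chr5:17835897-17836146, minus strand) each hold 1 match near the upstream end of the stretch. Ucp3 (chr7:100472741-100472989, plus strand) holds 2. Acot1 (chr12:84009252-84009489, plus strand), the member with the largest difference between Rev-nAAC and nAAC at 6 and 8 weeks, holds none. The last stretch lies between the diverging genes Hadha and Hadhb (chr5:30155163-30155247, plus strand, 85 bases), which encode the 2 subunits of 1 enzyme, and also holds none.
Acadm: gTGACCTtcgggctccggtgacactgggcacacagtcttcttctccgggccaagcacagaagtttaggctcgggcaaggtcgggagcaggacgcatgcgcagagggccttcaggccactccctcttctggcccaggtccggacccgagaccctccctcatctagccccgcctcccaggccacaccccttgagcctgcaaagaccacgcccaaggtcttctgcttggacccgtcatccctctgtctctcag
Cd36: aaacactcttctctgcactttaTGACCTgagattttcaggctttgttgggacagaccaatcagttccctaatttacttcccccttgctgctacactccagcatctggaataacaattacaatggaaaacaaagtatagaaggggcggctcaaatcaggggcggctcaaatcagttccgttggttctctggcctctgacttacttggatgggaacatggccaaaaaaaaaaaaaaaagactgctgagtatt
Ucp3: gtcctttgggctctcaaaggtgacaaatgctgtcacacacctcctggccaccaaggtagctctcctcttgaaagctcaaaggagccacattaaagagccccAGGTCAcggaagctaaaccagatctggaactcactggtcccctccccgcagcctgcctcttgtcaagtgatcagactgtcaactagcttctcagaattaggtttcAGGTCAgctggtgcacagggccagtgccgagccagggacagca
Acot1: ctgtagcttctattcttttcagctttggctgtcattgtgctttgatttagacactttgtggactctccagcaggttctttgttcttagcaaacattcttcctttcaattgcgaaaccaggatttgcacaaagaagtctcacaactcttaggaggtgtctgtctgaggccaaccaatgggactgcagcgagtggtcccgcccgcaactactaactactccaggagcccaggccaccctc
Hadha to Hadhb: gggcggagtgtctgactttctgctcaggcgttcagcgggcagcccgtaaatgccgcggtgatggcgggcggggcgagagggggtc

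Library totals ranged from 31.6 to 36.0 M counts. Levels are given as CPM, counts scaled to a common library size and composition, and the 5 values of a group are in the order of replicates 1 to 5. Read from Xist and 4 Y-linked genes, every sham library was male. The nAAC groups held 3, 4 and 2 females by age, and the Rev-nAAC groups 2, 2 and 4. The doubted libraries number 4, and counts of members that rest on them are given with and without them. They are nAAC 4-week replicate 1, whose treatment tag says sham against its title, nAAC 4-week replicate 5, the least like its group, Rev-nAAC 4-week replicate 2, rich in red cell transcripts, and Rev-nAAC 8-week replicate 4, rich in fat cell transcripts. The 10 cardiomyocyte marker genes together took 63945 to 66305 CPM in sham and 38320.3 to 45339 CPM in nAAC libraries at 6 weeks, and 7 fibroblast markers took 990.5 to 1463 and 2296 to 3679.6 CPM. The defining cardiomyocyte genes Myh6, Tnnt2 and Tnni3 were high in every library, with lowest values of 5753, 2408 and 1715 CPM.

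Per kilobase of merged exons, Fabp3, the fatty acid binding protein of heart muscle cytosol, had the highest level of the set in sham hearts at 4 weeks, 3066 ± 247 CPM per kb (SD, n = 5). Acaa2, the mitochondrial thiolase, followed at 471 ± 18.1 CPM per kb, then the fatty acid translocase gene Cd36 at 465.8 ± 17.4 CPM per kb. The last 2 lay within each other's spread. Merged exons hold those of every annotated isoform, so the order depends on this measure of length. Lpl, with 10478 merged exon bases, stood at 356 ± 25.7 CPM per kb. Acot1, a cytosolic thioesterase that splits acyl-CoA, stood near the bottom at 2.12 ± 0.613 CPM per kb. Together the 38 genes took 3.39 ± 0.120% of the counts of nuclear genes in sham hearts at 6 weeks and 1.91 ± 0.0921% in nAAC hearts, with 2.79 ± 0.359% in Rev-nAAC hearts. The level of Cpt1b, the muscle isoform of the enzyme that makes acylcarnitine, cannot be used. It had 9 to 65 counts a library, and 81.4% of its exon bases in GENCODE M21 (chr15:89416405-89425863, GRCm38) lie inside exons of the read-through gene Gm44502 on the same strand, which itself had 0 to 7 counts. How reads shared by genes were counted is not given in the sources used here.

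The comparison of nAAC with sham asks what lasting pressure load from birth did to these genes. At 4 weeks 24 of the 38 fell and 0 rose, where 21.2% of all tested genes fell and 19.5% rose (edgeR quasi-likelihood test, Benjamini-Hochberg over all genes, threshold 0.05). At 6 weeks 34 fell and 0 rose, against 23.8% and 24.5% of all genes, and at 8 weeks 32 fell and 0 rose, against 23.5% and 23.8%. DESeq2 and limma voom also called 0 members higher at each age, as did an unadjusted p under 0.05. The median log2 fold change of the 38 was -0.51, -1.01 and -0.88, where that of all tested genes was -0.026, 0.016 and 0.018. In 19, 34 and 33 genes at the 3 ages, every nAAC library lay below every sham library, as did 12.6%, 18.9% and 19.6% of all tested genes. The mean nAAC level was at a median of 70.5%, 49.8% and 54.4% of the sham mean. Acot13, Cpt1a and Cpt1b did not pass at any age. In male libraries alone 21, 28 and 31 genes fell, although nAAC had 1 male library at 6 weeks, and the 6-week calls lost were those of Acad10, Acot1, Fabp3, Mlycd, Plin5 and Slc27a1. At 4 weeks 20 fell with nAAC replicate 1 counted as sham. Without the doubted libraries 26 fell at 4 weeks.

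**Figure D1:**
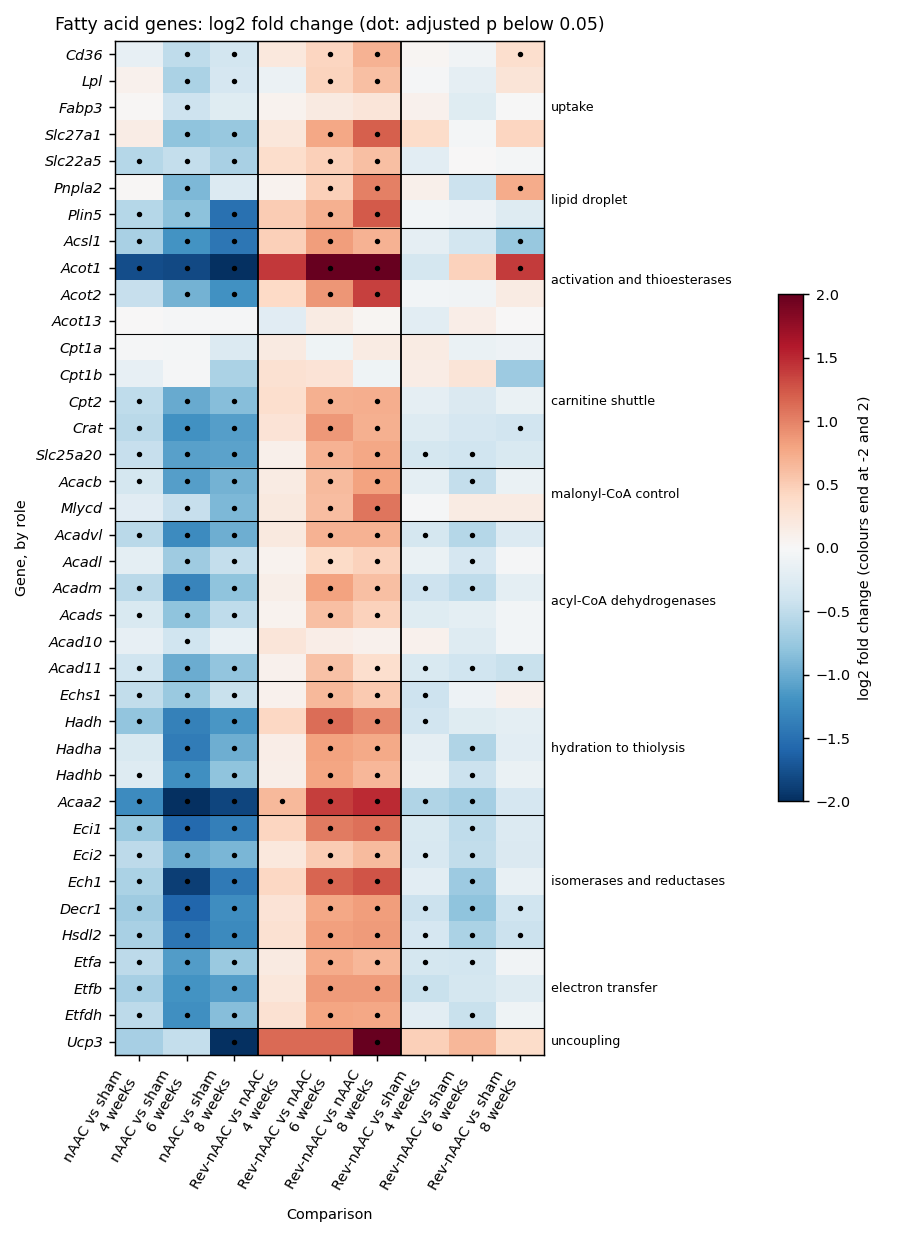
Log2 fold change of each of the 38 genes (rows, by role) in the 9 comparisons of operations (columns), with a dot where the adjusted p was below 0.05 and colours ending at -2 and 2. The 3 columns of nAAC against sham are blue with 24, 34 and 32 dots, the columns of Rev-nAAC against nAAC are red with 1, 32 and 33, and those against sham are pale with 12, 16 and 8.

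The 5 uptake genes had median log2 fold changes in nAAC against sham of 0.022, -0.51 and -0.37 at 4, 6 and 8 weeks, and 1, 5 and 4 of them fell. Cd36, which takes up long-chain fatty acids at the cell surface, measured 1623, 1849, 1886, 2035 and 1973 CPM in sham, 1186, 1263, 1379.7, 1402 and 1341 in nAAC and 1278, 1900.2, 1459, 2097 and 2158 in Rev-nAAC hearts at 6 weeks. Its nAAC values all lay below the sham values, while Rev-nAAC values spread over both (nAAC against sham -0.51 ± 0.12, SE, adjusted p = 0.00070, edgeR). Lpl, the lipase that frees fatty acids from lipoproteins, measured 4683, 4338, 4410.0, 4700.5 and 5121 CPM in sham, 3679.8, 3144, 2503, 2569.7 and 3170.3 in nAAC and 3312, 4301, 3575, 5065 and 4168 in Rev-nAAC hearts. Lpl fell at 6 weeks (-0.63 ± 0.13) and at 8 weeks (-0.34 ± 0.13, adjusted p = 0.033, edgeR), but at 4 weeks its value was 0.080 and did not pass. The 8-week call was lost without sham replicate 2 or 5 or nAAC replicate 2, 3 or 4, up to an adjusted p of 0.092 (edgeR). Fabp3 measured 2616, 2987, 3373, 3297 and 2757 CPM in sham, 2411, 2225, 1933, 2216 and 2457 in nAAC and 2423, 2135, 2472, 2689 and 2969 in Rev-nAAC hearts. It passed at 6 weeks (-0.42 ± 0.13, adjusted p = 0.0056, edgeR), where its nAAC and sham values did not overlap, and not at 4 or 8 weeks (0.022 and -0.25). Slc27a1, a fatty acid transporter with acyl-CoA synthetase activity, fell to 57.3% of sham at 6 weeks and 59.3% at 8 weeks. At 8 weeks it measured 114, 112, 74.2, 95.7 and 102 CPM in sham, 62.6, 54.8, 57.8, 60.3 and 59.4 in nAAC and 121, 142, 139, 211 and 59.5 in Rev-nAAC hearts, where the male Rev-nAAC library, replicate 5, lay among the nAAC values. Slc22a5, which imports carnitine, fell at all 3 ages, with log2 fold changes of -0.56, -0.47 and -0.65.

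Of the lipid droplet genes, Plin5 coats droplets that touch mitochondria and Pnpla2 encodes the lipase that starts their breakdown. Plin5 measured 153, 146, 122, 134 and 118 CPM in sham, 45.9, 51.2, 49.8, 38.4 and 54.2 in nAAC and 99.8, 107, 92.4, 186 and 75.2 in Rev-nAAC hearts at 8 weeks. Every nAAC value lay below every other value, and Rev-nAAC replicate 4 stood above all sham libraries (nAAC against sham -1.49 ± 0.19, adjusted p = 4.7e-08, edgeR). Pnpla2 measured 347, 353, 341, 344 and 357 CPM in sham, 222, 179, 174, 159 and 194 in nAAC and 220.2, 226, 228, 317 and 309 in Rev-nAAC hearts at 6 weeks. Sham lay above both operations with no overlap, and Pnpla2 fell in nAAC (-0.91 ± 0.16, adjusted p = 1.4e-05, edgeR), while the Rev-nAAC value against sham did not pass (-0.42 ± 0.16, adjusted p = 0.064, edgeR). At 8 weeks it measured 234, 281, 236, 223 and 223 CPM in sham, 202, 199.9, 186, 201 and 202 in nAAC and 351, 396, 375, 645 and 226 in Rev-nAAC hearts. The 4 female Rev-nAAC libraries then lay above all sham libraries, and the male library, replicate 5, lay within the sham range (0.74 ± 0.16 against sham, adjusted p = 0.00043, edgeR). The nAAC value at 8 weeks was -0.27 ± 0.16 and did not pass (adjusted p = 0.17, edgeR), although every nAAC library lay below every sham library.

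Acsl1, the main acyl-CoA synthetase of the heart, measured 909, 851, 843, 865 and 815 CPM in sham, 424, 375, 366, 347 and 361 in nAAC and 540.0, 588, 593, 921 and 692 in Rev-nAAC hearts at 6 weeks. At 8 weeks it measured 1139, 1079, 913, 992 and 1023 CPM in sham, 367, 359.7, 412, 335 and 412 in nAAC and 517, 642, 575, 792 and 529 in Rev-nAAC hearts, where no Rev-nAAC library reached the sham range. Sham levels of Acsl1 rose with age (8 against 4 weeks 0.63 ± 0.14, adjusted p = 0.00094, edgeR), while nAAC libraries stayed below them at each age. The log2 difference between nAAC and sham was -0.65, -1.19 and -1.45 at 4, 6 and 8 weeks, and it was more negative at 8 than at 4 weeks (adjusted p = 0.0060, edgeR). Acot1 measured 9.79, 10.96, 5.496, 5.75 and 10.2 CPM in sham, 0.893, 1.43, 1.12, 1.25 and 1.42 in nAAC and 12.6, 15.1, 13.2, 64.4 and 5.51 in Rev-nAAC hearts at 8 weeks. Its nAAC values lay far below sham, and Rev-nAAC ran from within the sham range to 64.4 CPM in replicate 4. Acot1 fell in nAAC at all 3 ages, with log2 fold changes of -1.77 ± 0.51, -1.80 ± 0.52 and -2.78 ± 0.54. At 6 weeks it measured 6.31, 6.42, 8.95, 6.16 and 7.66 CPM in sham, 1.92, 1.74, 2.497, 2.94 and 1.06 in nAAC and 4.71, 7.16, 2.25, 13.3 and 21.7 in Rev-nAAC hearts, with no overlap between sham and nAAC. Its mitochondrial relative Acot2, which lies beside it on chromosome 12, fell at 6 weeks (-0.95 ± 0.21) and 8 weeks (-1.21 ± 0.22). Acot2 measured 60.6, 57.4, 47.8, 54.7 and 59.6 CPM in sham, 24.4, 22.9, 25.6, 21.7 and 26.8 in nAAC and 47.4, 66.7, 58.0, 109 and 32.5 in Rev-nAAC hearts at 8 weeks. Of the 100-base stretches of Acot1 and Acot2, 21.9% and 17.1% also occur in other genes, so their split between near-identical copies is uncertain. Acot13, another thioesterase, stood at 244 ± 32.5 CPM in sham and 239 ± 28.3 in nAAC hearts at 6 weeks (SD, n = 5).

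**Figure D2:**
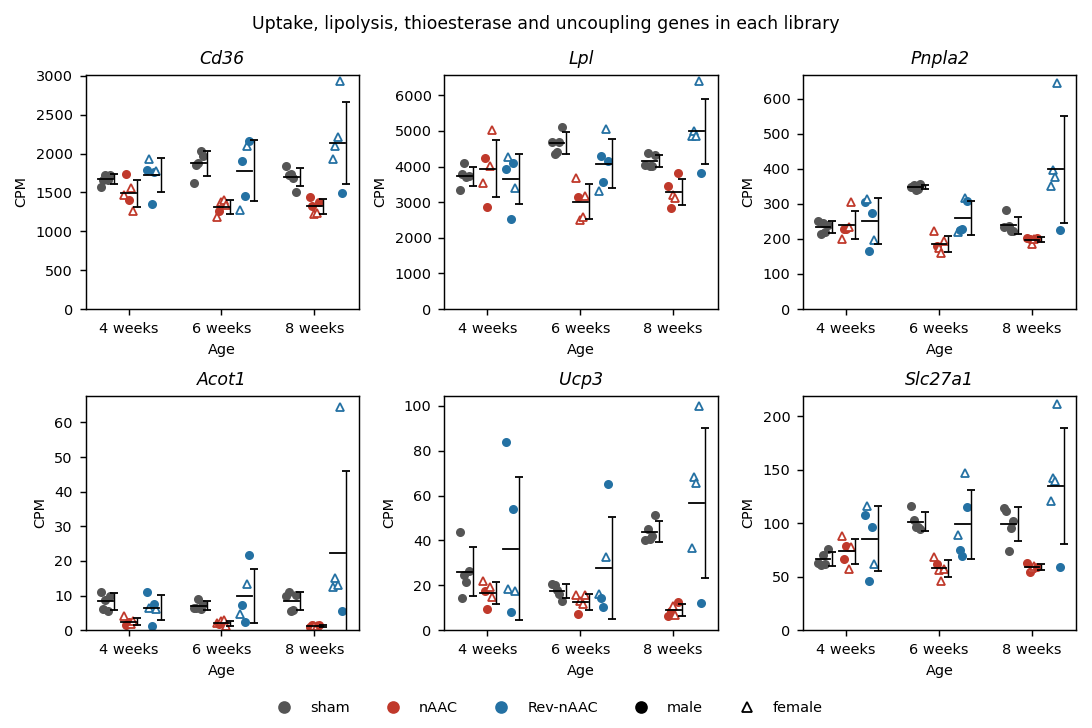
CPM of Cd36, Lpl, Pnpla2, Acot1, Ucp3 and Slc27a1 in each library (y axis) by age and operation, filled for male and open for female libraries, with lines for the mean and bars for the SD, cut at 0. At 8 weeks the Rev-nAAC libraries spread widely, with replicate 4, a female library, highest in all 6 panels, at 64.4 CPM for Acot1.

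In the carnitine shuttle, Cpt2, Crat and Slc25a20 fell at all 3 ages. Cpt2 turns acylcarnitine back into acyl-CoA in the matrix, and it measured 196, 196, 209, 176 and 178 CPM in sham, 107, 86.9, 88.8, 104 and 87.1 in nAAC and 143, 130.4, 145, 189 and 170.3 in Rev-nAAC hearts at 6 weeks. The nAAC values lay below all others, at 49.5% of the sham mean (-1.01 ± 0.13, adjusted p = 3.4e-08, edgeR). Slc25a20, the carrier that swaps acylcarnitine for carnitine, stood at 72.8%, 47.0% and 47.5% of sham. Crat, which makes acetylcarnitine, stood at 68.8%, 43.3% and 46.5%. Cpt1a, the liver isoform of the first shuttle enzyme, measured 54.6, 52.7, 48.3, 49.1 and 47.1 CPM in sham, 53.4, 49.97, 49.6, 40.5 and 51.7 in nAAC and 39.7, 44.1, 34.5, 52.5 and 59.4 in Rev-nAAC hearts at 6 weeks. Its groups overlapped (-0.039 ± 0.14, adjusted p = 0.84, edgeR). Cpt1b stood between 0.301 and 2.001 CPM over all libraries, with the limit on its counting given above.

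Malonyl-CoA blocks that first step. Acacb, the mitochondrial acetyl-CoA carboxylase that makes it, measured 396, 341, 303, 338 and 381 CPM in sham, 219, 165, 158, 126 and 151 in nAAC and 206, 221, 228, 329 and 281 in Rev-nAAC hearts at 6 weeks. Mlycd, the decarboxylase that breaks it down, measured 108, 104, 99.3, 97.5 and 96.5 CPM in sham, 53.7, 55.5, 59.1, 49.1 and 52.4 in nAAC and 108, 122.7, 107, 157 and 72.8 in Rev-nAAC hearts at 8 weeks. Both genes, for making and for removing malonyl-CoA, fell in nAAC, with no overlap with sham at these ages. The log2 fold changes of Acacb were -1.10 ± 0.15 and -0.94 ± 0.15 at 6 and 8 weeks, and those of Mlycd -0.46 ± 0.15 and -0.90 ± 0.15 (largest adjusted p = 0.010, edgeR). The 4-week call of Acacb (-0.36, adjusted p = 0.048, edgeR) was lost with DESeq2, with voom and without the doubted libraries, and also without sham replicate 3, 4 or 5 or nAAC replicate 3 or 5, up to an adjusted p of 0.19 (edgeR).

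The acyl-CoA dehydrogenases carry out the first step of each turn, on chains of different length. All 6 fell at 6 weeks, with a median log2 fold change of -0.90. Acadm, for medium chains, measured 1187, 1298, 1318, 1379 and 1301 CPM in sham, 573, 516, 487, 497 and 527 in nAAC and 753, 814, 822, 1191 and 973 in Rev-nAAC hearts at 6 weeks. Acadvl, for very long chains, measured 1092, 1144, 1173, 1221 and 1087 CPM in sham, 560.0, 446, 461, 474 and 453 in nAAC and 711, 663, 665, 1046 and 784 in Rev-nAAC hearts. In both genes nAAC lay lowest and apart, and Rev-nAAC lay higher, with its replicate 4 at the lowest sham value for Acadm and just under it for Acadvl. The log2 fold change in nAAC was -1.32 ± 0.12 for Acadm and -1.26 ± 0.13 for Acadvl (larger adjusted p = 5.3e-10, edgeR). Of the exon bases of Acadvl, 42.9% overlap Dvl2 on the other strand, and the strand setting of the counting is not given in the sources used here. Acadl, for long chains, and Acads, for short chains, stood at 61.0% and 57.5% of sham at 6 weeks. Acad11 stood at 50.2%, and Acad10, the acyl-CoA dehydrogenase with the lowest level, at 76.2% (adjusted p = 0.011, or 0.056 without nAAC replicate 4, edgeR).

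The 5 genes from hydration to thiolysis all fell at 6 and 8 weeks, and 4 fell at 4 weeks. Acaa2, which cuts off acetyl-CoA, measured 729, 689, 752, 687 and 717 CPM in sham, 279, 333, 215, 235 and 433 in nAAC and 569.6, 407, 258, 621 and 487 in Rev-nAAC hearts at 4 weeks. At 6 weeks it measured 871, 999, 983, 1012 and 967 CPM in sham, 268, 194, 247, 264 and 188 in nAAC and 510.4, 523, 463, 859 and 674 in Rev-nAAC hearts. At 8 weeks it measured 828, 893, 635, 666 and 803 CPM in sham, 191, 240.1, 217, 184 and 243 in nAAC and 603, 618, 536, 764 and 515 in Rev-nAAC hearts. Every nAAC library lay below every sham library at each age, and from 6 weeks also below every Rev-nAAC library. Its log2 fold changes in nAAC were -1.26 ± 0.18, -2.06 ± 0.18 and -1.83 ± 0.18 (largest adjusted p = 3.5e-07, edgeR), and the 6-week mean was 24.0% of sham. Acaa2 was also the 1 member that rose in Rev-nAAC against nAAC at 4 weeks (0.65 ± 0.17, adjusted p = 0.035, edgeR), a call that was lost without nAAC replicate 3 or 4 or Rev-nAAC replicate 1, 4 or 5, up to an adjusted p of 0.16 (edgeR).

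Hadha and Hadhb encode the alpha and beta subunits of the mitochondrial trifunctional protein, which carries out the last 3 steps on long chains, and they diverge from the stretch printed above. Hadha measured 1542, 1592, 1678, 1759.9 and 1711 CPM in sham, 736, 605, 574, 573 and 649 in nAAC and 953, 959, 942, 1426 and 1173 in Rev-nAAC hearts at 6 weeks. Hadhb measured 1510.3, 1594, 1648, 1775 and 1676 CPM in sham, 758, 703, 628, 689.7 and 722 in nAAC and 1075, 1067, 1070.0, 1542 and 1315 in Rev-nAAC hearts. In both genes the nAAC values lay below all others, and only replicate 4 of Rev-nAAC, for Hadhb, came within the sham range. The ratio of Hadha to Hadhb CPM ran from 0.831 to 1.11 over the 45 libraries. At 6 weeks it was 0.992 to 1.02 in sham, above the 0.831 to 0.971 in nAAC and 0.880 to 0.924 in Rev-nAAC hearts. At 4 and 8 weeks the ranges of the ratio overlapped. The log2 fold change in nAAC was -0.30, -1.40 and -0.98 for Hadha and -0.26, -1.23 and -0.80 for Hadhb at 4, 6 and 8 weeks. At 4 weeks Hadha did not pass (adjusted p = 0.065, edgeR), and the call of Hadhb (adjusted p = 0.044) was lost with DESeq2 and when any 1 of the 10 libraries other than nAAC replicate 5 was left out, up to 0.11 (edgeR). Of the 100-base stretches of Hadhb, 52.8% also occur in the pseudogenes Gm13910 and Gm9108. Hadh, the dehydrogenase for shorter chains, measured 567, 547, 573, 502 and 574 CPM in sham, 323, 319, 253, 285 and 417 in nAAC and 502, 337, 274, 533 and 475 in Rev-nAAC hearts at 4 weeks, and its nAAC means stood at 57.8%, 39.0% and 44.5% of sham, and Echs1, the hydratase for short chains, at 70.9%, 59.6% and 73.5%.

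Unsaturated fatty acids need isomerases and a reductase besides. Decr1, the dienoyl-CoA reductase, measured 454, 529, 536, 576 and 523 CPM in sham, 198, 169, 167, 172 and 170.4 in nAAC and 253, 263, 244, 396 and 342 in Rev-nAAC hearts at 6 weeks. Ech1, a dienoyl-CoA isomerase, measured 1336, 1700.4, 1753, 1848 and 1507 CPM in sham, 517, 414, 377, 465 and 430.3 in nAAC and 927, 799, 742, 1349 and 1102 in Rev-nAAC hearts. Decr1 separated all 3 groups, while replicate 4 of Rev-nAAC reached the lowest sham value of Ech1. All 5 genes of this role fell at each age, with medians of -0.64, -1.55 and -1.27. The log2 fold change at 6 weeks was -1.89 ± 0.17 for Ech1, -1.58 ± 0.13 for Decr1 and -1.55 ± 0.17 for the enoyl-CoA isomerase gene Eci1 (largest adjusted p = 1.1e-09, edgeR). Eci2, another enoyl-CoA isomerase, and Hsdl2, which encodes a dehydrogenase-like protein, stood at 50.1% and 36.6% of sham.

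**Figure D3:**
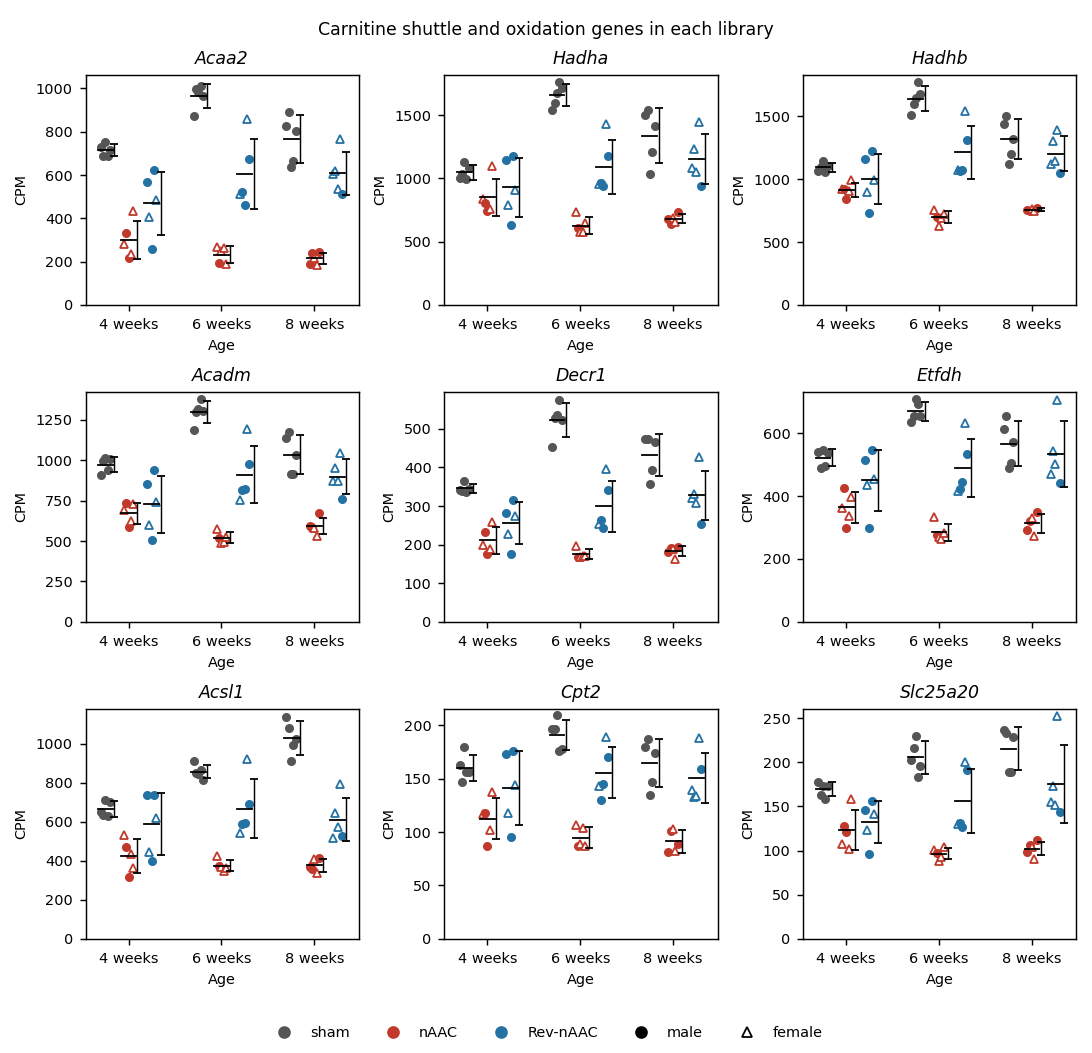
CPM of 9 genes of activation, carnitine shuttle and oxidation in each library (y axis) by age and operation, filled for male and open for female libraries, with lines for the mean and bars for the SD. At 6 and 8 weeks the nAAC libraries form a tight low group, as for Acaa2 at 188 to 268 CPM at 6 weeks, while Rev-nAAC libraries lie between them and sham or reach the sham range.

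Electrons from the dehydrogenases pass through the flavoprotein ETF and its dehydrogenase to the respiratory chain. Etfdh measured 634, 655, 709.6, 693 and 654 CPM in sham, 333, 277, 269.6, 262 and 282 in nAAC and 417, 424, 443, 631 and 534 in Rev-nAAC hearts at 6 weeks. The 3 groups did not overlap, with replicate 4 of Rev-nAAC just under the lowest sham value (-1.23 ± 0.13 in nAAC against sham, adjusted p = 3.5e-10, edgeR). Etfa and Etfb, the ETF subunits, stood at 46.3% and 43.6% of sham, and 58.2% of the exon bases of Etfb overlap Gm45233 and a microRNA gene on the same strand. Etfb already measured 500.3, 469, 499, 446 and 490.1 CPM in sham, 272, 276, 260.2, 223 and 479 in nAAC and 380.4, 357, 234, 414 and 385 in Rev-nAAC hearts at 4 weeks, with sham above all other libraries except nAAC replicate 5. Ucp3, an uncoupling protein of muscle mitochondria, measured 40.2, 45.1, 40.5, 41.8 and 51.4 CPM in sham, 6.19, 8.31, 10.8, 6.62 and 12.6 in nAAC and 36.6, 68.4, 65.7, 99.8 and 12.2 in Rev-nAAC hearts at 8 weeks. Its nAAC values lay below all sham values, while the Rev-nAAC values ran from among the nAAC values to above all sham values. Ucp3 fell at 8 weeks (-2.30 ± 0.50, adjusted p = 0.00024, edgeR), and at 4 and 6 weeks its values, -0.66 ± 0.48 and -0.47 ± 0.48, did not pass.

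The other ages of the panel genes can be given by their ranges. At 4 weeks Acadm ranged over 905 to 1014 CPM in sham, 584 to 734 in nAAC and 509 to 936 in Rev-nAAC hearts. Hadha ranged over 994 to 1132, 745 to 1097 and 631 to 1177 CPM in the same order. Decr1 ranged over 336 to 366, 176 to 258 and 176 to 317 CPM. The sham and nAAC ranges of Hadha overlapped, because of nAAC replicate 5 at 1097 CPM, while those of Acadm and Decr1 did not. Uptake genes overlapped more at this age, with Cd36 at 1576 to 1731, 1262 to 1743 and 1347 to 1927 CPM and Lpl at 3337 to 4093, 2858 to 5034 and 2530.2 to 4278 CPM. At 8 weeks Acadm ranged over 911 to 1177 CPM in sham, 533 to 675 in nAAC and 757 to 1042 in Rev-nAAC hearts. Hadha ranged over 1031 to 1539, 641 to 733 and 941 to 1449 CPM. Etfdh, which hands electrons on to ubiquinone, ranged over 488 to 656, 273 to 348 and 443 to 706 CPM. The nAAC range lay lowest and apart in all 3 genes, and the Rev-nAAC and sham ranges overlapped.

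Whether the loss in nAAC differed between ages was tested directly. From 4 to 6 weeks 22 members had a more negative nAAC effect and 0 a more positive one, where 8.32% and 8.96% of all tested genes did so (edgeR). The largest differences were those of Ech1 (-1.26 ± 0.23), Hadha (-1.10 ± 0.19) and Hadhb (-0.97 ± 0.15, largest adjusted p = 0.00013, edgeR). Between 4 and 8 weeks 11 had a more negative effect and 0 a more positive one, against 6.70% and 6.86%, led by Plin5 (-0.92 ± 0.27), Slc27a1 (-0.91 ± 0.30) and Acsl1 (-0.80 ± 0.20), and 7 did so without nAAC 8-week replicate 4. DESeq2 and voom also called 0 members more positive in both tests, and an unadjusted p under 0.05 did likewise. Without the doubted libraries the counts were 16 and 5, and in male libraries alone 6 and 1. Sham hearts also changed with age. In sham, 15 members rose from 4 to 6 weeks and 0 fell, against 7.32% and 9.58% of all genes, and 6 rose and 1, Echs1, fell from 4 to 8 weeks, against 10.7% and 12.0%. DESeq2, voom and an unadjusted p under 0.05 gave 0 lower members in sham at 6 weeks. Ech1 rose most in sham at 6 weeks (0.78 ± 0.16), followed by Hadha (0.66 ± 0.13) and Slc27a1 (0.61 ± 0.22). The sham count at 6 weeks was 9 without sham 4-week replicate 4. That at 8 weeks was 1 to 3 without sham 4-week replicate 1, 2 or 4 or sham 8-week replicate 1 or 2, and 12 without sham 8-week replicate 3 or 4. The 6 rises at 8 weeks became 13 by DESeq2, 19 by voom, 12 with RLE scaling and 17 with the compared groups only, and the 15 rises at 6 weeks became 25 by voom and 28 with the compared groups only. The call of Echs1 was lost without sham 4-week replicate 3 or 5 or sham 8-week replicate 1, 3 or 4. Age and any unlabelled batch cannot be told apart.

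The comparison of Rev-nAAC with nAAC asks what the reversible constriction left of this loss. It shares the nAAC libraries with the comparison above, so a gene with a chance low nAAC mean would appear in both. At 4 weeks 1 member rose and 0 fell, against 0.790% and 1.76% of all tested genes (edgeR). The count at 4 weeks was 3 by DESeq2, 11 by voom and 9 without the doubted libraries. Leaving out Rev-nAAC replicate 3 gave 11, and leaving out nAAC replicate 5 gave 5. It was 3 when nAAC replicate 1 or Rev-nAAC replicate 2 was dropped, and 0 when nAAC replicate 3 or 4 or Rev-nAAC replicate 1, 4 or 5 was. At 6 weeks 32 rose and 0 fell, against 13.8% and 12.1%, and at 8 weeks 33 rose and 0 fell, against 16.9% and 16.0%. DESeq2, voom and an unadjusted p under 0.05 gave 0 lower members at each age. The median log2 fold change was 0.22, 0.72 and 0.72. No gene separated the groups at 4 weeks, but in 27 genes at 6 weeks and 31 at 8 weeks every Rev-nAAC library lay above every nAAC library, as did 8.59% and 10.3% of all tested genes. The largest rises at 6 weeks were those of Acot1 (2.27 ± 0.52), Acaa2 (1.38 ± 0.18) and Ech1 (1.16 ± 0.16). At 8 weeks Acot1 (4.18 ± 0.56), Ucp3 (2.67 ± 0.50) and Acaa2 (1.499 ± 0.18) led (largest adjusted p = 0.0012, Acot1 at 6 weeks, edgeR). Without the doubted libraries the 8-week value of Acot1 was 3.24 ± 0.48 and that of Ucp3 2.36 ± 0.52, and without Rev-nAAC 8-week replicate 4 alone that of Acot1 was 3.23. The members that did not pass at either age were Fabp3, Acot13, Cpt1a, Cpt1b and Acad10, with 8-week values of 0.24, 0.035, 0.16, -0.093 and 0.086. In male libraries alone 16 rose at 6 weeks, with 3 Rev-nAAC and 1 nAAC library, and 5 at 8 weeks, with 1 and 3. Without the doubted libraries 33 rose at 8 weeks.

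The effect of the reversible constriction against nAAC was larger at 6 than at 4 weeks in 6 members and smaller in 0, against 1.72% and 0.971% of all genes (edgeR). At 8 against 4 weeks it was larger in 17 and smaller in 0, against 4.05% and 3.86%. DESeq2, voom and an unadjusted p under 0.05 also gave 0 members with a smaller effect. The 6 were Acadm, Echs1, Etfa, Hadh, Hadha and Hadhb, and Hadhb had a difference of 0.67 ± 0.15 (adjusted p = 0.013, edgeR). In the later test Acot1 (2.76 ± 0.74), Acot2 (0.97 ± 0.30) and Slc27a1 (0.97 ± 0.30) led the 17. Both counts were 0 without the doubted libraries, in male libraries alone, and in fits to the compared groups only. They were 2 and 3 without Rev-nAAC 4-week replicate 3. The first was 1 without Rev-nAAC 6-week replicate 4 and 3 without nAAC 6-week replicate 3, but 10 to 14 without nAAC 4-week replicate 3 or 4, nAAC 6-week replicate 1, Rev-nAAC 4-week replicate 4 or Rev-nAAC 6-week replicate 1 or 3. The second was 3 without Rev-nAAC 8-week replicate 4, and 8 to 11 without nAAC 4-week replicate 5, nAAC 8-week replicate 1, 2 or 4, Rev-nAAC 4-week replicate 2 or Rev-nAAC 8-week replicate 2.

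Rev-nAAC was set against sham to see how far these genes still differed. At 4 weeks 12 members fell and 0 rose, against 13.1% and 12.2% of all genes (edgeR), and at 6 weeks 16 fell and 0 rose, against 8.39% and 8.66%. DESeq2, voom and an unadjusted p under 0.05 gave 0 higher members at both ages. At 8 weeks 5 fell and 3 rose, against 17.3% and 18.3%. The 5 falls at 8 weeks became 17 by voom and 12 without the doubted libraries. The median log2 fold change was -0.21, -0.34 and -0.13, and the mean Rev-nAAC level was at a median of 86.4%, 79.2% and 91.3% of sham. Rev-nAAC means lay between the nAAC and sham means for 28, 31 and 27 genes, above sham for 8, 6 and 10, and below nAAC for 2, 1 and 1. At 4 weeks the lowest against sham were Acaa2 (-0.61 ± 0.17), Etfb (-0.44 ± 0.14) and Decr1 (-0.44 ± 0.13), and at 6 weeks Decr1 (-0.81 ± 0.13), Ech1 (-0.73 ± 0.16) and Acaa2 (-0.67 ± 0.17). The 4-week count was 4 without Rev-nAAC replicate 3, 6 without Rev-nAAC replicate 2 and 7 without sham replicate 1, 3 or 5. With nAAC replicate 1 counted as sham it was 2, and without the doubted libraries it was 9.

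**Figure D4:**
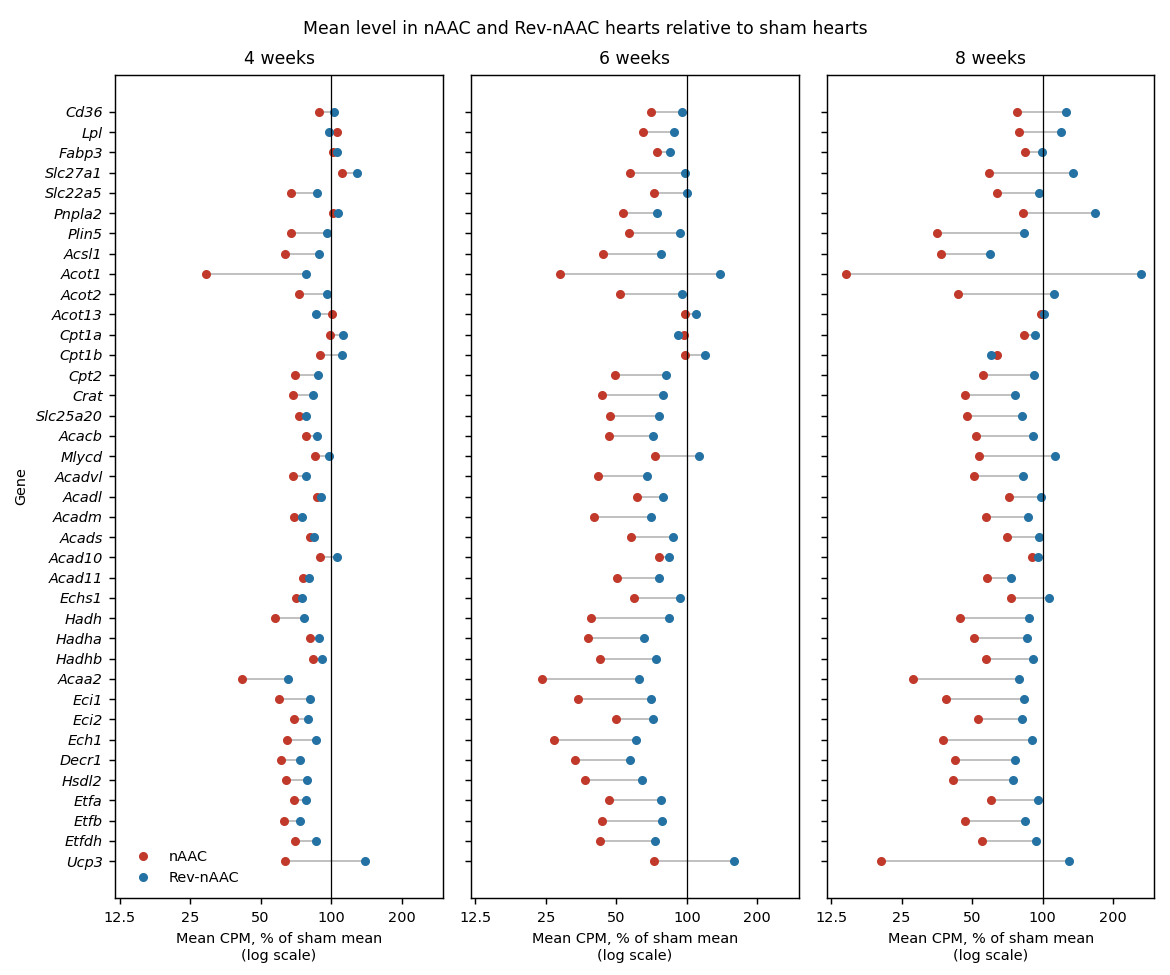
Mean CPM of each gene in nAAC and Rev-nAAC hearts as a percentage of the sham mean of the same age (log x axis), with a line joining the 2 operations. The nAAC points lie left of 100% at 6 weeks for all 38 genes, with Acaa2 lowest at 24.0%, and the Rev-nAAC points lie between them and 100% for 31 genes.

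At 8 weeks the members below sham in Rev-nAAC hearts were Acsl1, Acad11, Hsdl2, Decr1 and Crat. Of these, Acsl1 stood furthest below sham (-0.75 ± 0.14, adjusted p = 4.9e-05, edgeR). Its Rev-nAAC values of 517 to 792 CPM did not reach the sham range of 913 to 1139. The Rev-nAAC mean of Acsl1 was 88.4%, 77.8% and 59.4% of the sham mean at 4, 6 and 8 weeks. Acad11 measured 181, 196, 149, 159 and 154 CPM in sham and 109, 127, 129, 126 and 124 in Rev-nAAC hearts, again without overlap, while Hsdl2, with 356, 336, 277, 317 and 309 and 208, 251, 235, 310.4 and 183 CPM, overlapped. The log2 fold change was -0.45 ± 0.12 for Acad11, -0.43 ± 0.12 for Hsdl2, -0.40 ± 0.13 for Decr1 and -0.39 ± 0.12 for Crat (largest adjusted p = 0.014, Decr1, edgeR). In male libraries alone the values of Acsl1, Hsdl2 and Decr1 were -0.95, -0.80 and -0.77, all past the threshold, although Rev-nAAC then had 1 library, assumed to vary like the others. The call of Decr1 was lost without Rev-nAAC replicate 5, with an adjusted p of 0.055 (edgeR). Acot1 (1.39 ± 0.48, adjusted p = 0.022), Pnpla2 (0.74 ± 0.16) and Cd36 (0.33 ± 0.12, adjusted p = 0.034, edgeR) rose above sham. Sex and single libraries cannot be told apart here, since Rev-nAAC had 1 male library at 8 weeks, replicate 5. Rev-nAAC 8-week replicate 4 held 12.7 CPM of the fat cell hormone gene Adipoq and 114 CPM of Cfd. Sham 4-week replicate 1, not among the doubted libraries, held 4.60 and 6.22 CPM, and the other 43 libraries at most 0.423 and 3.98 CPM. That sham library also held 19.6 CPM of Ucp1, where the 43 held at most 0.0589 CPM. Plin1, Car3, Cidec, Retn and Pck1 were also highest in Rev-nAAC replicate 4. Fabp4 (896 CPM, against at most 865 in the 43) and Lep (0 CPM, against at most 0.0937) hardly set it apart. Without the doubted libraries Pnpla2 still rose (0.49 ± 0.13, adjusted p = 0.0039, edgeR), while Acot1 (0.46) and Cd36 (0.19) did not pass, and 12 members fell. In male libraries alone, the lone Rev-nAAC male gave values of -0.61, -0.080 and -0.18 for these 3 genes, the opposite sign, with none past the threshold. With sex as a covariate Pnpla2 passed (0.61 ± 0.18, adjusted p = 0.010, edgeR), and Acot1 and Cd36 did not. The 8-week count of rises was 1 without sham replicate 4 or Rev-nAAC replicate 4 and 5 without Rev-nAAC replicate 5, and that of falls was 9 without Rev-nAAC replicate 4. Of the 3 rises, that of Acot1 was lost without sham replicate 3 or 4 or Rev-nAAC replicate 4, and that of Cd36 without sham replicate 2, 4 or 5 or Rev-nAAC replicate 2, 3 or 4, up to adjusted p of 0.45 and 0.26 (edgeR). 

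The reversible groups were also uneven within an age. Taken as the median over the 38 genes of the log2 difference from the sham mean, Rev-nAAC libraries at 4 weeks stood at 0.03, -0.34, -0.73, 0.05 and -0.21. Replicates 1 and 4 lay within the sham range and replicate 3 lay below all 5 nAAC libraries, which stood at -0.42, -0.42, -0.64, -0.62 and -0.24. Replicate 3 also had the lowest summed cardiomyocyte markers of its group, 35878 CPM, and the highest fibroblast markers, 3226 CPM, and replicates 1 and 4 the highest cardiomyocyte markers, 53302 and 54754 CPM. At 6 weeks the Rev-nAAC values were -0.55, -0.54, -0.58, -0.02 and -0.17, and those of nAAC were -0.85, -1.08, -1.12, -1.07 and -1.04. Replicates 4 and 5 thus stood near sham and the other 3 about midway. At 6 weeks replicate 4 also had the highest cardiomyocyte markers, 63348 CPM, but replicate 3, lowest in the members, came next at 54445 CPM. At 8 weeks the Rev-nAAC values were -0.23, -0.06, -0.20, 0.15 and -0.45, where the last is the male library and the fourth the one with fat cell transcripts. The cardiomyocyte markers did not follow this order, since replicate 4 had the lowest sum of the group, 43557 CPM, and replicate 5 had 50529 CPM. The nAAC libraries at 8 weeks ran from -1.02 to -0.78, below all Rev-nAAC libraries. With sex as a term beside the groups, 0 of the 38 genes differed between male and female libraries (edgeR), 0 also at an unadjusted p under 0.05, where 43 of all 15444 tested genes passed and 1379 had an unadjusted p under 0.05. The median of this term, log2 male minus female, was -0.071 over the 38 genes and -0.0038 over all tested genes. It is shared by all groups and rests on the groups that hold both sexes. It therefore cannot show whether sex mattered within a single group, such as Rev-nAAC at 8 weeks. No other tool was run for this term.

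**Figure D5:**
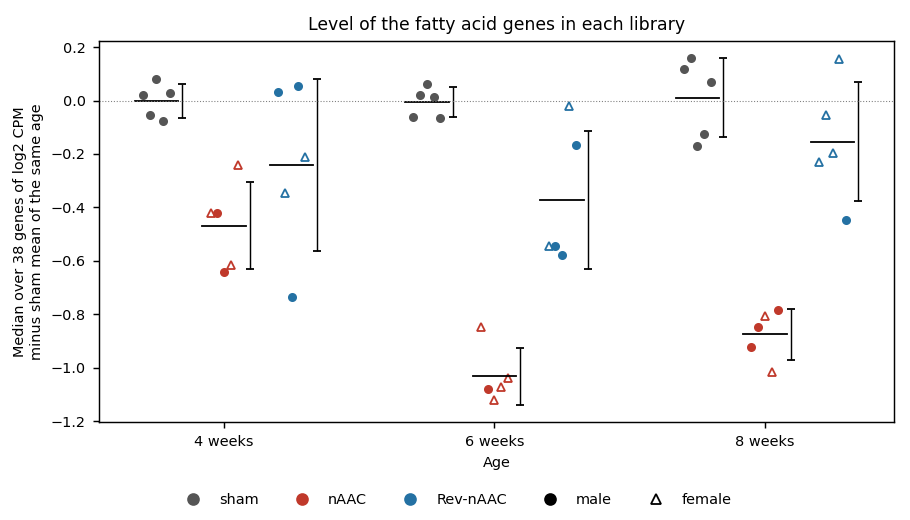
Median over the 38 genes of the log2 CPM difference from the sham mean of the same age (y axis) for each library, by age and operation, filled for male and open for female libraries, with the mean and SD. The nAAC libraries at 6 weeks lie from -1.12 to -0.85, and the Rev-nAAC libraries at 4 weeks spread from -0.73 to 0.05.

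Other genes of lipid metabolism were read from lists, in the same tests and against the same shares of all genes. Of 21 tested regulators of the PPAR, PGC-1 and ERR families and their partners, 6, 15 and 10 fell and 2, 0 and 1 rose in nAAC at 4, 6 and 8 weeks. The smallest p at 6 weeks belonged to the nuclear receptor genes Rxrg (-1.60 ± 0.15), Esrra (-0.88 ± 0.09) and Rxra (-0.59 ± 0.08). Ppara, the receptor gene best known for switching on fatty acid oxidation and named here after its values were seen, also fell (-1.34 ± 0.20). In Rev-nAAC against nAAC 10 of them rose at 6 and at 8 weeks. Of 12 other PPAR-responsive genes, 7 fell and 3 rose at 6 weeks, and at 8 weeks 7 fell. Tmem143, Pdk2 and Pxmp2, with values of -1.08, -0.91 and -1.01, had the smallest p at 6 weeks. Of 26 genes of ketone body and branched-chain amino acid oxidation, 14, 23 and 21 fell and 1 rose at each age, and in Rev-nAAC against nAAC 23 and 20 rose at 6 and 8 weeks. The riser at 6 weeks was Bdh1, a ketone body dehydrogenase, from 30.0 ± 5.61 to 134 ± 28.6 CPM at 6 weeks (2.16 ± 0.19, adjusted p = 1.1e-11, edgeR). Aldh6a1 (-1.32 ± 0.15) and Hibadh (-0.75 ± 0.08), both of valine breakdown, fell.

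Among 19 tested peroxisomal genes 10, 13 and 14 fell in nAAC, among them at 6 weeks Pex11a (-1.60 ± 0.13) and the fatty acyl transporter gene Abcd2 (-1.60 ± 0.19), and at 8 weeks 10 were still below sham in Rev-nAAC. Of 20 further mitochondrial acyl-CoA and carnitine genes 7, 13 and 12 fell and 5, 5 and 4 rose. Triacylglycerol storage and breakdown genes were mixed, with 7, 9 and 9 of 20 lower and 3, 2 and 2 higher, and Dgat2, which makes triacylglycerol, fell by -1.30 ± 0.15 at 6 weeks. Of 18 genes of fatty acid synthesis and elongation, 5 fell and 5 rose at 6 weeks, and of 18 other uptake and activation genes 4 fell and 4 rose. Acsl6, a synthetase, fell from 13.3 ± 2.33 to 0.727 ± 0.339 CPM (-4.17 ± 0.33). Of the 8 genes in the AMPK list 3 fell and 3 rose, and those with the smallest p were Prkab1 (-0.92 ± 0.12), Prkag1 (-0.59 ± 0.09) and Prkaa2 (-0.79 ± 0.14). The median log2 fold changes of these lists at 6 weeks ran from -0.84 for the PPAR-responsive genes and -0.74 for ketone body and branched-chain oxidation to 0.11 for other uptake and activation, beside -1.01 for the 38 members.

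Cell type markers also differed between nAAC and sham. Of all tested genes 21.2%, 23.8% and 23.5% fell in nAAC at 4, 6 and 8 weeks, and 19.5%, 24.5% and 23.8% rose. Of 10 cardiomyocyte markers 4, 8 and 6 fell in nAAC and 2, 0 and 0 rose, with medians of -0.15, -0.42 and -0.58, and their summed level ran from 54246 to 72387 CPM in sham to 36742 to 45529.8 in nAAC and 43557 to 55316 in Rev-nAAC at 8 weeks. Of 7 fibroblast markers 2, 6 and 4 rose, and of 8 endothelial markers 0, 4 and 4 rose. At 4 weeks the endothelial sum was lower in nAAC, at 1090 to 1332 CPM against 1410 to 1598 in sham. The macrophage sum had means of 323 CPM in nAAC and 475 in sham at 4 weeks, 295 and 281 at 6 weeks, and 303 and 387 at 8 weeks. At 6 weeks skeletal muscle markers summed to 925 to 1301 CPM in nAAC and 1721 to 2052 in sham. Brown fat markers summed to 285 to 420 and 620 to 780 CPM. The skeletal muscle list holds Ckm and the brown fat list Cox7a1 and Ppargc1a, genes not limited to those tissues. Ucp1 of the brown fat list stood at most at 0.0589 CPM in the 43 libraries other than Rev-nAAC 8-week replicate 4 and sham 4-week replicate 1. Neither sum thus measures an amount of skeletal muscle or brown fat. Of 5 red cell markers 0, 5 and 4 rose. Mitochondrially encoded transcripts took 28.2 to 32.3% of counts in sham and 18.7 to 27.9% in nAAC at 6 weeks. With those transcripts left out of the library sizes, 34 members still fell at 6 weeks. The part of cell composition in the members' values was not tested.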

How the data were processed

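The deposited file holds raw counts per gene for 45 left ventricle libraries. Per the submitters' processing notes, fastp 0.20.1, HISAT2 2.1.0 and HTSeq 0.11.2 were used on GRCm38 (mm10), and the authors deposited the counts unnormalized. Neither the annotation used for counting, nor its strand setting, nor how shared reads were handled is given in the sources used here. All columns were matched to a sample by name, with 0 columns left unused. Genes were kept by filterByExpr (minimum count 10, minimum total 15), which left 15444 of 27007, and libraries were scaled by TMM. One quasi-likelihood model in edgeR 4.0.16 (R 4.3.3) was fitted to all 9 groups, 15 contrasts were tested, and p-values were adjusted by Benjamini-Hochberg over all tested genes at 0.05. The ± beside a log2 fold change is its SE and the ± beside a level is the SD over 5 libraries. The per-library shift used log2(CPM + 0.5). The fits were checked on simulated data.

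The members and the gene lists were chosen with earlier results of these data known, so no test of a list is given. Values by library are given for a fixed panel of 20 members and for the 3 largest rises and falls of a comparison, and up to 3 genes a list are named by smallest p, apart from 1 gene that is not reported here. Exon overlaps were read from GENCODE M21 and promoters from RefSeq (GRCm38.p6). Alternatives were DESeq2 1.42.0, limma 3.58.1 voom with quality weights, RLE scaling, scaling without mitochondrially encoded genes, no filter, the compared groups only, sex as a covariate, male libraries only, nAAC 4-week replicate 1 as sham, a replicate block, leaving out each library, and, chosen after seeing the data, leaving out the 4 doubted libraries together. Samples with the same replicate number deviated together (r above 0.1) in at most 2 of 5 pairs in a comparison, the highest r being 0.33. The main model therefore did not pair the libraries by number, but so few pairs cannot exclude a shared origin. No 2 libraries were close to identical beyond the rest, the highest correlation between log2 CPM profiles being 0.996.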

Additional observations from a re-analysis of the deposited data

Results flagged for a closer look

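In 9 of 180 gene and group combinations of the 20 panel genes, 1 library stood apart from the other 4 (gap over range above 0.71), and chance gives about 1 in 20. Rev-nAAC 8-week replicate 4, the library with fat cell transcripts, stood high for Acot1, at 64.4 CPM where the others had 5.51 to 15.1, and for Plin5, at 186 CPM against 75.2 to 107. Rev-nAAC 4-week replicate 3 stood low for Cd36, at 1347 CPM against 1767 to 1927. For nAAC 6-week replicate 1 the values of Acadvl, Decr1 and Etfdh, 560.0, 198 and 333 CPM, lay above those of its group. Hadha stood apart in nAAC 4-week replicate 5 at 1097 CPM, and Pnpla2 in sham 8-week replicate 2 at 281 CPM and in nAAC 8-week replicate 3 at 186 CPM. The causes were not tested.

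The nAAC effect against sham differed between 6 and 4 weeks, by the edgeR test of the difference, for 10 panel genes. The log2 differences were -0.79 for Acadm, -0.71 for Acadvl, -0.71 for Etfdh, -0.80 for Acaa2, -1.10 for Hadha, -0.97 for Hadhb, -0.87 for Decr1, -0.94 for Pnpla2, -0.75 for Acacb and -0.71 for Lpl. Between 8 and 4 weeks they were -0.80 for Acsl1, -0.67 for Hadha, -0.54 for Hadhb, -0.53 for Decr1, -0.92 for Plin5 and -0.68 for Mlycd. The effect of Rev-nAAC against nAAC differed between 6 and 4 weeks by 0.69 for Acadm, 0.67 for Hadha and 0.67 for Hadhb. Between 8 and 4 weeks the difference was 2.76 for Acot1, 0.85 for Acaa2, 0.63 for Hadha, 0.54 for Hadhb, 0.56 for Decr1, 0.94 for Pnpla2, 0.64 for Acacb, 0.88 for Mlycd and 0.71 for Lpl. These tests share the 4-week nAAC libraries.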

How the results depend on the processing

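The falls in nAAC kept within 1.5 times their counts of 24, 34 and 32 under every alternative run, and leaving out 1 library gave 21 to 25, 33 to 34 and 31 to 33. The rises in Rev-nAAC against nAAC at 6 and 8 weeks, 32 and 33, ran from 29 to 33 and from 32 to 33 without 1 library, but were 16 and 5 in male libraries only. At 4 weeks the 1 rise became 3 by DESeq2, 11 by voom, 0 without a filter or with the compared groups only, 2 with sex as a covariate, in males or with nAAC 4-week replicate 1 as sham, 9 without the doubted libraries, and 0 to 11 without 1 library. In Rev-nAAC against sham the 12 falls at 4 weeks became 7 without a filter, 6 with the compared groups only or in males, 2 with replicate 1 as sham and 4 to 12 without 1 library. At 8 weeks the 5 falls became 17 by voom, 12 without the doubted libraries and 4 to 9 without 1 library, and the 3 rises became 1 with the compared groups only, with sex as a covariate or without the doubted libraries, 0 in males, and 1 to 5 without 1 library. At 6 weeks the 16 falls ran from 12 to 21 without 1 library. In males the signs reversed for Cd36 (-0.18), Pnpla2 (-0.080) and Acot1 (-0.61) at 8 weeks against sham.

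The 22 members with a stronger nAAC effect at 6 than at 4 weeks became 6 in males and 19 to 25 without 1 library. The 11 at 8 against 4 weeks became 23 by voom, 1 in males, 5 without the doubted libraries and 7 to 13 without 1 library. For Rev-nAAC against nAAC the 6 became 13 by DESeq2, 2 by voom, 3 with replicate 1 as sham, 0 with the compared groups only, in males or without the doubted libraries, and 1 to 14 without 1 library. The 17 at 8 against 4 weeks became 11 without a filter, 3 with sex as a covariate, 9 with replicate 1 as sham, 0 with the compared groups only, in males or without the doubted libraries, and 3 to 25 without 1 library. In sham the 15 rises at 6 weeks became 25 by voom, 28 with the compared groups only and 9 to 15 without 1 library. The 6 rises at 8 weeks became 13 by DESeq2, 19 by voom, 12 with RLE scaling or replicate 1 as sham, 11 without mitochondrial transcripts, 10 without a filter, 17 with the compared groups only and 1 to 12 without 1 library, and the 1 fall became 0 without a filter, with replicate 1 as sham or without some of the libraries. With a replicate block the counts of falls in nAAC were 25, 34 and 32, those in Rev-nAAC against sham 12, 17 and 6, the rises in sham at 8 weeks 7 and the larger Rev-nAAC effects at 8 against 4 weeks 18, and its other counts equalled those reported. The causes of these moves were not tested.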
